A study of Mus musculus with 16 samples.

Results

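The lysosome and autophagy genes described here are 74 of the 19799 named genes counted by RNA sequencing in pmi28 cells, a mouse myoblast line. They were chosen by symbol alone: all Atp6v and Atp6ap genes (V-ATPase), all cathepsins named Cts plus 1 letter, all numbered Atg and Lamp genes, all Map1lc3 genes, and Tfeb, Tfe3, Sqstm1, Becn1, Ulk1, Ulk2, Gabarap and Gabarapl1. By role they divide into 13 V1 subunits, 9 V0 subunits and 3 accessory proteins of the V-ATPase, 18 cathepsins, 4 Lamp proteins, 17 Atg proteins, 4 LC3 and GABARAP proteins, and a set of 6 made up of the regulators and the cargo receptor Sqstm1.

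The study asked how forced expression of msx2, a homeobox transcription factor, changes the transcriptome of isolated myotubes. A transgenic line carrying doxycycline-inducible msx2 and GFP was set against one carrying inducible GFP alone. The 6 groups were induced myotubes of the msx2 line (3 libraries), uninduced myotubes of the msx2 line (3) and uninduced myoblasts of the msx2 line (2), then induced myotubes (3), uninduced myotubes (3) and uninduced myoblasts (2) of the GFP line. All cells were pmi28 cells with a transgene. Myotubes were formed during 3 days in horse serum, isolated on a mesh and kept with AraC, a drug that stops dividing cells. Induced myotubes received doxycycline at 2 µg/ml for 24 h in serum-rich growth medium. The medium of the uninduced myotubes over those hours is not given in the sources used here, so within a line doxycycline, msx2 or GFP and a possible change of medium cannot be told apart. The GFP line, treated with doxycycline in the same way, is the control for the drug, the medium and GFP. Whether either line is 1 clone, and whether replicates came from separate cultures, is likewise not stated, so p-values measure only the spread between these libraries, which may be technical.

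Libraries held 19784873 to 33092666 counts. Msx2, the gene switched on, stood at 1344, 1462 and 1514 CPM (counts scaled to library size by TMM) in induced msx2-line myotubes, 12.1, 15.9 and 13.2 CPM in uninduced ones and 0.803 to 1.59 CPM in all GFP-line libraries. The 11 myotube markers fixed for the check summed to 21205 to 24661 CPM in induced and 33105 to 37218 CPM in uninduced msx2-line myotubes, against 2124 to 2215 CPM in msx2-line myoblasts, and to 35343 to 39947 CPM in GFP-line myotubes against 1013 to 1022 CPM in GFP-line myoblasts. The 12 myoblast and cycling cell markers ran the other way, at 134 to 232 CPM in all myotubes and 1899 to 2373 CPM in all myoblasts. Replicates of a group differed by more than counting noise in every group (chi-square per degree of freedom 1.95 between the GFP-line myoblasts and 10.5 to 31.3 elsewhere).

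Lysosomes are acidic organelles in which cathepsins and other hydrolases break down what endocytosis and autophagy deliver. The V-ATPase acidifies them: its V1 sector hydrolyses ATP in the cytosol, its membrane V0 sector carries the protons, and several subunits exist as isoforms from separate genes. In autophagy the Ulk1 kinase complex and the Becn1 lipid kinase complex start a membrane that Atg2 and Atg9 proteins expand, Atg conjugation enzymes attach LC3 and GABARAP to it, and Sqstm1 brings cargo. Tfeb and Tfe3 are transcription factors that bind the CLEAR motif in promoters of lysosomal and autophagy genes. Skeletal muscle uses both systems to remove worn mitochondria and protein.

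The CLEAR core, TCACGTGA, which reads the same on both strands and contains the E-box CACGTG, was searched in RefSeq promoters (build GRCm38.p6, 250 bases before to 50 after each start). Of the 74 members 59 had a promoter there, and 6 of these 59 (10.2%) held the core, against 1.12% of the 27025 genes with a promoter. CACGTG was found in 13 of 59 (22.0%) against 8.09%. The muscle E-box CAGCTG was found in 11 (18.6%) against 18.3%, and TAATTG, the core that Msx proteins bind, in 2 (3.39%) against 9.22%, both strands counted. The 60 bases around the core are printed 5′ to 3′ on the gene's strand, with the core in capitals, because these members can be followed by name through the comparisons: Atg3, the enzyme that hands LC3 to lipid (chr16:45158731-45158790, plus strand), Atp6v0d1 (chr8:105566035-105566094, minus), Atp6v0e (chr17:26676372-26676431, plus), Atp6v1a (chr16:44139358-44139417, minus), Ctsa (chr2:164833734-164833793, plus) and Ctsd (chr7:142387893-142387952, minus).
Atg3: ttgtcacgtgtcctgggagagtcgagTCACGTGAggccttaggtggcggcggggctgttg
Atp6v0d1: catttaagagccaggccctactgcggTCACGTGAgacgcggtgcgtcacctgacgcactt
Atp6v0e: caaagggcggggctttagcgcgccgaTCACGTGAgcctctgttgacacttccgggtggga
Atp6v1a: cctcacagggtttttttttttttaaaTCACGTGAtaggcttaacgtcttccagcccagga
Ctsa: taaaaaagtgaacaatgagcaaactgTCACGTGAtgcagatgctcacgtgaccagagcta
Ctsd: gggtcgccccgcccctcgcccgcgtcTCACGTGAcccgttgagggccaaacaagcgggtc
The Ctsa window holds the core a second time, in lower case. None of the 4 motifs was found in the promoters listed for Tfeb.

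**Figure D1:**
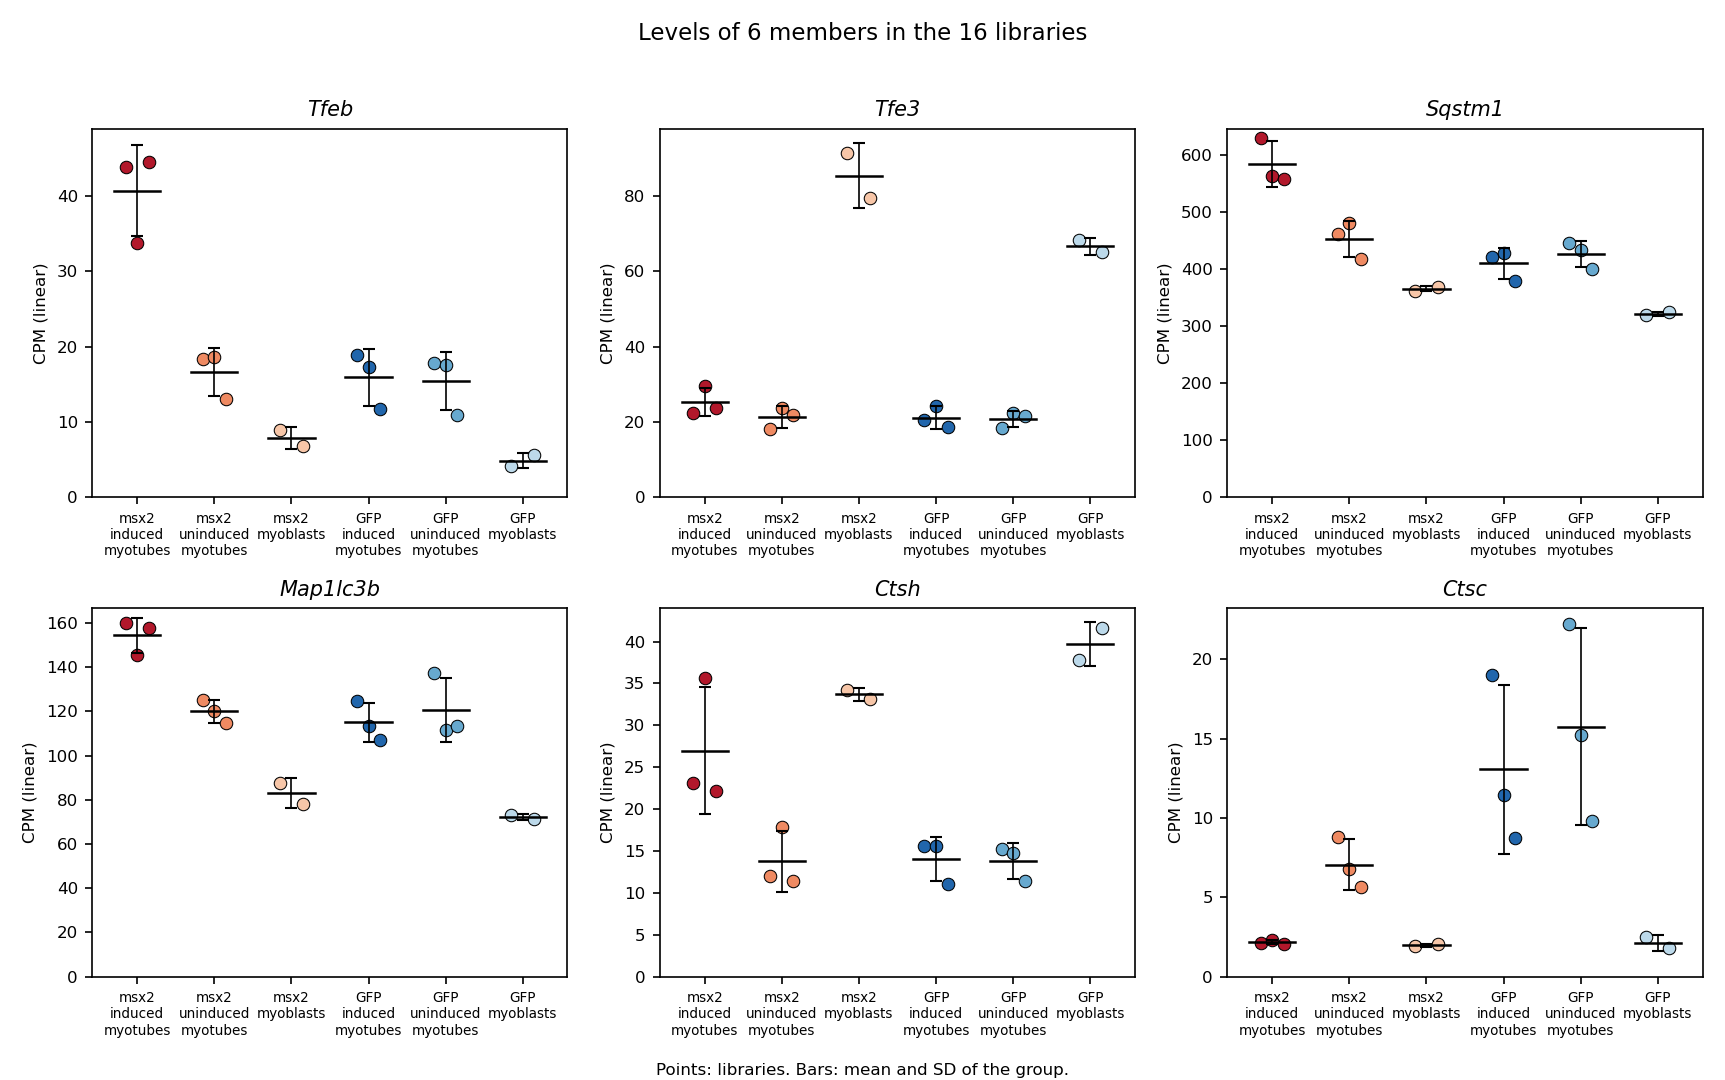
Levels of Tfeb, Tfe3, Sqstm1, Map1lc3b, Ctsh and Ctsc in CPM (linear axes from 0) for the 6 groups, with a point for each of the 16 libraries and bars for the group mean and SD. The 3 induced msx2-line libraries of Tfeb lie at 33.7 to 44.4 CPM, above the other 13 libraries, while those of Ctsc lie at 2.06 to 2.32 CPM, below all other myotube libraries.

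Induction of msx2 in myotubes was accompanied by higher levels of Tfeb, Sqstm1, Map1lc3b, Atp6v0a1 and Ctsh and by lower levels of Ctsc, Atp6v0e2, Atg4a and Atg4b. Of the 67 members with enough reads for a test, 19 were higher and 5 lower in induced than in uninduced msx2-line myotubes at an edgeR adjusted p under 0.05, while 32.5% of all 16245 genes tested were called (16.2% higher, 16.3% lower). The 24 called members therefore stood near the share of all genes in number (35.8%), with more of them higher. The median log2 fold change was 0.12 over the members and -0.01 over all genes. The myotube marker sum was lower in the same induced libraries, as given above, with 6 of the 11 markers called lower and 0 higher. Myh3 averaged 2076 CPM in induced and 8269 CPM in uninduced msx2-line myotubes, whereas Des, Ckm, Tnnt1 and Tmem8c did not average lower. The part of these markers in the members' differences was not tested. In bulk RNA, fewer cells of a type and less RNA per cell cannot be told apart. The induction in the msx2 line, its difference from the GFP line and the comparison of the induced lines share libraries, so they are not independent.

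Among the regulators, Tfeb was at 43.9, 33.7 and 44.4 CPM in induced msx2-line myotubes and 18.4, 18.6 and 13.0 CPM in uninduced ones. Every induced library lay above every uninduced one, and the means were 40.7 ± 6.06 and 16.6 ± 3.18 CPM (SD, n = 3 each), a log2 fold change ± SE of 1.29 ± 0.22, edgeR adjusted p = 0.000443. Tfe3, its relative, was at 22.4, 29.6 and 23.8 CPM in induced and 18.3, 23.8 and 21.9 CPM in uninduced myotubes, and these ranges overlapped (log2 0.24 ± 0.13, edgeR adjusted p = 0.168). Sqstm1, the receptor that carries ubiquitinated cargo into autophagosomes, was at 631, 563 and 558 CPM in induced and 462, 481 and 419 CPM in uninduced myotubes (log2 0.36 ± 0.07, edgeR adjusted p = 0.000886), again without overlap. The kinase Ulk1 was called higher, at 91.3, 69.5 and 91.0 CPM in induced against 76.7, 57.2 and 70.5 CPM in uninduced myotubes (log2 0.30 ± 0.11, edgeR adjusted p = 0.0470). Its libraries overlapped, and the call was lost without uninduced replicate 2 or 3 or induced replicate 1 or 3 (edgeR adjusted p between 0.0725 and 0.179). Ulk2 had 70.5, 55.2 and 59.7 CPM in induced and 59.1, 49.8 and 54.4 CPM in uninduced myotubes (log2 0.19 ± 0.08, edgeR adjusted p = 0.110); with the replicate number as a block it passed, at 0.18 and an edgeR adjusted p of 0.0458. Becn1 had 101, 90.7 and 94.3 CPM in induced and 105, 97.1 and 101 CPM in uninduced myotubes and did not pass (log2 -0.08 ± 0.05, edgeR adjusted p = 0.261).

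Of the LC3 and GABARAP proteins, which coat the autophagosome membrane, 2 of 4 rose and none fell. Map1lc3b was at 159.8, 145 and 158 CPM in induced and 125, 120.1 and 115 CPM in uninduced myotubes, with no overlap (log2 0.36 ± 0.08, edgeR adjusted p = 0.00282). Gabarapl1 was at 52.7, 52.5 and 45.4 CPM in induced and 40.5, 47.2 and 42.5 CPM in uninduced myotubes (log2 0.21 ± 0.08, edgeR adjusted p = 0.0478). The Gabarapl1 libraries overlapped, and its call was lost without uninduced replicate 1 or 3 or induced replicate 1 or 2 (edgeR adjusted p between 0.125 and 0.166). Map1lc3a had 151, 130.4 and 161 CPM in induced and 145, 119.7 and 106 CPM in uninduced myotubes (log2 0.26 ± 0.12, edgeR adjusted p = 0.116), and Gabarap 167, 183 and 162 CPM in induced and 147, 167 and 146 CPM in uninduced ones (log2 0.15 ± 0.06, edgeR adjusted p = 0.0723). Neither passed, but both did with the replicate block, at edgeR adjusted p = 0.0282 for Map1lc3a and 0.0418 for Gabarap.

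Of the Atg proteins 4 of 17 rose and 2 fell. Those that rose were both lipid transfer proteins, the scramblase Atg9a and Atg10. Atg2a was at 51.2, 52.4 and 51.0 CPM in induced and 39.3, 42.9 and 41.6 CPM in uninduced myotubes (log2 0.32 ± 0.06, edgeR adjusted p = 0.000712). Atg2b was at 75.3, 65.5 and 71.1 CPM in induced and 57.9, 50.3 and 63.6 CPM in uninduced ones (log2 0.30 ± 0.08, edgeR adjusted p = 0.00775). Atg9a was at 107, 91.4 and 106 CPM in induced and 90.9, 80.3 and 76.3 CPM in uninduced ones (log2 0.30 ± 0.08, edgeR adjusted p = 0.00898). In each of these 3 genes the groups did not overlap. With the replicate block and a GC correction together, the calls of Atg2a (log2 0.03, edgeR adjusted p = 0.691) and Atg9a (0.09, edgeR adjusted p = 0.336) were lost, and with the compared groups fitted alone that of Atg2b (0.31, edgeR adjusted p = 0.0541). Atg10, which joins Atg12 to Atg5, was at 16.8, 16.1 and 17.7 CPM in induced and 15.0, 13.6 and 13.0 CPM in uninduced myotubes (log2 0.29 ± 0.10, edgeR adjusted p = 0.0304), a call lost without uninduced replicate 2 or 3 or induced replicate 1 or 3 (edgeR adjusted p between 0.0598 and 0.114). The members that fell were Atg4a and Atg4b, proteases that trim newly made LC3 and GABARAP and free them from lipid. Atg4a was at 20.8, 19.1 and 18.9 CPM in induced and 29.1, 25.7 and 26.1 CPM in uninduced myotubes (log2 -0.46 ± 0.08, edgeR adjusted p = 0.000402). Atg4b was at 46.3, 41.4 and 44.9 CPM in induced and 67.6, 55.2 and 61.5 CPM in uninduced myotubes (log2 -0.47 ± 0.08, edgeR adjusted p = 0.000333). All induced libraries lay below all uninduced ones for both. Atg12, the ubiquitin-like partner of Atg5, had 98.1, 84.6 and 89.3 CPM in induced and 98.3, 84.9 and 90.0 CPM in uninduced myotubes (log2 -0.01 ± 0.08, not called). The other 10 Atg members had log2 fold changes between -0.07 and 0.26 and none was called.

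Of the V0 subunits 3 of 9 rose and 1 fell, and of the V1 subunits 2 of the 12 tested rose. Atp6v0a1, an isoform of the large a subunit through which protons pass, was at 157, 137 and 161 CPM in induced and 110.4, 96.5 and 114 CPM in uninduced myotubes (log2 0.51 ± 0.08, edgeR adjusted p = 8.30e-05). Its sister Atp6v0a2 was at 117, 106 and 109 CPM in induced and 86.6, 88.3 and 76.6 CPM in uninduced myotubes (log2 0.40 ± 0.09, edgeR adjusted p = 0.00192). Atp6v0d1, one of the members with a CLEAR core, was at 72.1, 73.9 and 69.8 CPM in induced and 59.0, 65.5 and 62.6 CPM in uninduced myotubes (log2 0.20 ± 0.06, edgeR adjusted p = 0.0138). The groups did not overlap in any of the 3, and the Atp6v0d1 call was lost without uninduced replicate 1 (edgeR adjusted p = 0.0635). Atp6v0e2, the second isoform of the small e subunit, moved the other way, at 21.8, 20.3 and 22.7 CPM in induced and 34.4, 33.4 and 26.7 CPM in uninduced myotubes (log2 -0.54 ± 0.11, edgeR adjusted p = 0.00152), also without overlap. In V1, the stalk subunit Atp6v1d was at 143, 126 and 124 CPM in induced and 120.4, 106 and 106 CPM in uninduced myotubes (log2 0.24 ± 0.08, edgeR adjusted p = 0.0225). The scarcer Atp6v1c2 was at 4.27, 5.00 and 4.63 CPM in induced and 2.55, 3.06 and 3.64 CPM in uninduced ones (log2 0.57 ± 0.19, edgeR adjusted p = 0.0286). Neither V1 call was stable: that of Atp6v1d was lost without uninduced replicate 2 or 3 or induced replicate 1 (edgeR adjusted p between 0.0688 and 0.106), and that of Atp6v1c2 without uninduced replicate 1 or 2 or induced replicate 2 or 3 (edgeR adjusted p between 0.0610 and 0.104). The proteolipid Atp6v0c missed the threshold (log2 0.21 ± 0.08, edgeR adjusted p = 0.0504) and passed with the replicate block (0.21 ± 0.07, edgeR adjusted p = 0.0239). None of the 3 accessory proteins was called.

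Cathepsins moved in both directions, with 5 of the 13 tested higher and 2 lower. Ctsh, an aminopeptidase, was at 23.1, 35.7 and 22.2 CPM in induced and 12.0, 17.9 and 11.4 CPM in uninduced myotubes (log2 0.97 ± 0.21, edgeR adjusted p = 0.00298). Ctss, which in the body is best known from antigen-presenting cells, was at 23.9, 25.1 and 22.2 CPM in induced and 15.8, 19.2 and 17.4 CPM in uninduced myotubes (log2 0.44 ± 0.10, edgeR adjusted p = 0.00236). Neither overlapped, whereas Ctsc, a dipeptidyl peptidase that activates granule serine proteases, was lower at 2.11, 2.32 and 2.06 CPM in induced against 8.78, 6.76 and 5.64 CPM in uninduced myotubes (log2 -1.69 ± 0.35, edgeR adjusted p = 0.00230). The 13 macrophage and leukocyte markers summed to 37.1 to 38.6 CPM in induced and 34.6 to 37.7 CPM in uninduced myotubes, with Lyz2, Fcer1g, C1qa, C1qb and Cd3e under 1 CPM in every group. Of the 9 markers tested 3 were higher, namely Csf1r (6.03 CPM in induced and 0.719 CPM in uninduced myotubes), Itgax (3.47 CPM in induced and 2.09 CPM in uninduced ones) and Tyrobp (2.52 CPM in induced and 1.61 CPM in uninduced ones). Itgam was lower, at 16.5 CPM in induced and 20.9 CPM in uninduced myotubes. The part of these markers in the cathepsin changes was not tested. Ctsz, a carboxypeptidase, was at 111, 131 and 111 CPM in induced and 92.0, 109 and 88.2 CPM in uninduced myotubes (log2 0.28 ± 0.08, edgeR adjusted p = 0.0116). Ctsf was at 21.1, 19.3 and 15.5 CPM in induced and 13.3, 15.0 and 13.5 CPM in uninduced ones (log2 0.42 ± 0.14, edgeR adjusted p = 0.0311). Ctsa, the protective protein of lysosomal sialidase, was at 142, 169 and 153 CPM in induced and 104, 145 and 115 CPM in uninduced ones (log2 0.35 ± 0.10, edgeR adjusted p = 0.0170). Ctsz and Ctsf did not overlap between the groups and Ctsa did. The major endopeptidase Ctsl was at 587, 739 and 669.5 CPM in induced and 724, 1081 and 814 CPM in uninduced myotubes (log2 -0.39 ± 0.14, edgeR adjusted p = 0.0396), with overlap. The call of Ctsz was lost without uninduced replicate 3 or induced replicate 2 (edgeR adjusted p between 0.0567 and 0.0662). That of Ctsf was lost without uninduced replicate 1 or 3 or induced replicate 1 or 2 (edgeR adjusted p between 0.0687 and 0.130), that of Ctsa without uninduced replicate 1 or 3 or induced replicate 2 (edgeR adjusted p between 0.0633 and 0.0795) and that of Ctsl without uninduced replicate 2 or induced replicate 1 or 3 (edgeR adjusted p between 0.0860 and 0.193). Ctsd, the aspartyl protease and the most abundant member, had 1607, 1608 and 1434 CPM in induced and 1604, 1721 and 1300.0 CPM in uninduced myotubes and was not called (log2 0.01 ± 0.13).

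Replicate 2 of the msx2 line stood apart within both myotube groups. Its 9 fibroblast markers summed to 1314 CPM in the induced library, against 433 and 635 CPM in the other 2 induced libraries, and to 1258 CPM in the uninduced library, against 469.6 and 836 CPM in the other 2. Ctsb, Ctsh, Ctsl, Ctsa and Ctsz were also highest in these libraries in both groups. Without both of them 22 members were called in the induction of msx2, 18 higher and 4 lower. Most of the fibroblast marker sum lay in Col1a1 and Col3a1, at 474 ± 302 and 250 ± 148 CPM in induced msx2-line myotubes (SD, n = 3). The part of the fibroblast markers in the cathepsin levels was not tested.

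Of the Lamp proteins, which line the lysosomal membrane, none of the 3 tested was called. Lamp1 had 536, 605 and 559 CPM in induced and 553, 629 and 554 CPM in uninduced msx2-line myotubes (log2 -0.03 ± 0.06), and Lamp2, the receptor of chaperone-mediated autophagy, 205, 235 and 206 CPM in induced and 215, 229.7 and 223 CPM in uninduced ones (log2 -0.04 ± 0.06). Lamp3 was scarcer, at 6.93, 6.62 and 7.90 CPM in induced and 8.33, 7.86 and 9.22 CPM in uninduced myotubes (log2 -0.24 ± 0.11). Summed over all 74 members, levels were 8202 ± 195 CPM in induced and 7877 ± 596 CPM in uninduced msx2-line myotubes (SD, n = 3 each), a difference smaller than the larger spread. The regulators and Sqstm1 together had 891 ± 61.4 CPM in induced and 715 ± 31.7 CPM in uninduced myotubes. The cathepsins together had 3100 ± 212 CPM in induced and 3154 ± 458 CPM in uninduced ones.

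**Figure D2:**
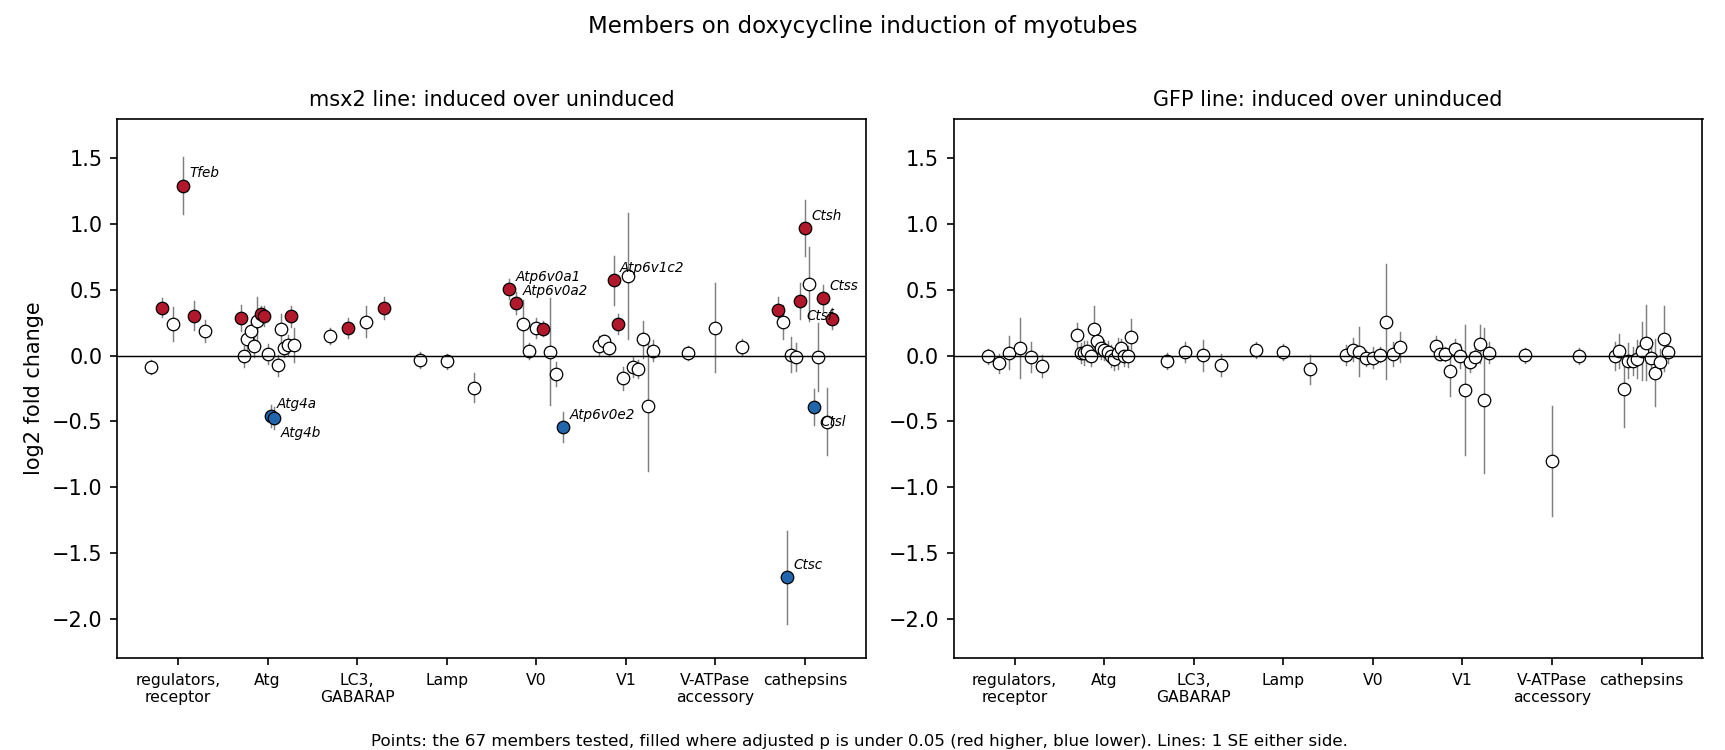
Log2 fold change of each of the 67 tested members, induced over uninduced myotubes, by role, for the msx2 line (left) and the GFP line (right), with lines of 1 SE either side and filled points where the edgeR adjusted p was under 0.05. The left panel has 19 red points above 0, Tfeb highest at 1.29, and 5 blue points below 0, Ctsc lowest at -1.69, and the right panel has no filled point.

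After doxycycline treatment of the GFP line no member passed. Of the 67 members edgeR called 0 and DESeq2 0, while 0.0308% of all genes were called by edgeR. An unadjusted edgeR p under 0.05 was found for 0 members and for only 164 of all 16245 genes. With the replicate block 0 members were called as well. Tfeb had 18.8, 17.3 and 11.7 CPM in induced and 17.8, 17.5 and 11.0 CPM in uninduced GFP-line myotubes (log2 0.06 ± 0.23). Sqstm1 had 422, 429 and 379 CPM in induced and 446, 434 and 401 CPM in uninduced ones (log2 -0.06 ± 0.07). Atp6v0a1 had 105, 104 and 112 CPM in induced and 106, 103 and 112 CPM in uninduced ones (log2 0.01 ± 0.08). Within the GFP line these 3 genes overlapped between the groups.

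The difference between the inductions of the 2 lines, msx2 line minus GFP line, was tested as an interaction. It was called for 10 members, 6 higher and 4 lower, while 17.9% of all genes were called (9.15% higher, 8.78% lower). The members with a larger change in the msx2 line were Tfeb (log2 difference 1.23 ± 0.31, edgeR adjusted p = 0.0142), Ctsh (0.93 ± 0.30, edgeR adjusted p = 0.0494), Atp6v0a1 (0.50 ± 0.11, edgeR adjusted p = 0.00366), Ctss (0.49 ± 0.14, edgeR adjusted p = 0.0212), Map1lc3b (0.43 ± 0.12, edgeR adjusted p = 0.0163) and Sqstm1 (0.42 ± 0.10, edgeR adjusted p = 0.00757). Those with a lower value in the msx2 line were Ctsc (-1.43 ± 0.46, edgeR adjusted p = 0.0467), Atp6v0e2 (-0.61 ± 0.16, edgeR adjusted p = 0.0140), Atg4a (-0.49 ± 0.11, edgeR adjusted p = 0.00668) and Atg4b (-0.47 ± 0.12, edgeR adjusted p = 0.00963). All 10 were also among the 24 called within the msx2 line, with the same sign, from shared libraries. Of the 10, Tfeb, Atp6v0a1, Map1lc3b, Sqstm1, Atp6v0e2, Atg4a and Atg4b were called whichever single library was left out. Without both msx2-line replicates 2 the calls of Atp6v0e2 (-0.52, edgeR adjusted p = 0.0535) and Ctsc (-1.51, edgeR adjusted p = 0.114) were lost. The Ctsc call was lost in 9 of the 12 fits without 1 library (edgeR adjusted p between 0.0556 and 0.102), all but those without uninduced msx2-line replicate 3, uninduced GFP-line replicate 1 or induced GFP-line replicate 3. The Ctsh call was lost in 8 of 12 (edgeR adjusted p between 0.0597 and 0.116), all but those without uninduced msx2-line replicate 2, induced msx2-line replicate 1 or 3, or uninduced GFP-line replicate 3. The Ctss call was lost without uninduced replicate 1 or uninduced GFP-line replicate 2 (edgeR adjusted p between 0.0504 and 0.0576). With the replicate block, Atp6v0a2 (0.36 ± 0.09, edgeR adjusted p = 0.00659), Atg9a (adjusted p = 0.0286) and Atg2b (adjusted p = 0.0482) passed too.

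Between the lines after induction, msx2 line over GFP line, 26 members were higher and 4 lower, against 35.3% of all genes called (17.6% higher, 17.8% lower). Tfeb was at 43.9, 33.7 and 44.4 CPM in induced msx2-line and 18.8, 17.3 and 11.7 CPM in induced GFP-line myotubes (log2 1.35 ± 0.22, edgeR adjusted p = 0.000302). Ulk2 was at 70.5, 55.2 and 59.7 CPM in the msx2 line and 50.1, 45.2 and 44.5 CPM in the GFP line (log2 0.41 ± 0.09, edgeR adjusted p = 0.00142). Ctsc was at 2.11, 2.32 and 2.06 CPM in the msx2 line and 19, 11.4 and 8.75 CPM in the GFP line (log2 -2.59 ± 0.35, edgeR adjusted p = 5.72e-05). The ranges of all 3 genes were separate between the lines. Of the 30 calls 18 held whichever library was left out, and leaving out 1 library ended between 3 calls (msx2 line replicate 3) and 9 calls (GFP line replicate 3). Before induction, edgeR called 0 members between the uninduced myotubes of the lines and DESeq2 called 2. Of all genes 0.0616% were called by edgeR (0.00616% higher, 0.0554% lower). An unadjusted edgeR p under 0.05 was found for 8 of the 67 members and for 1584 of all 16245 genes. Ctsc had 8.78, 6.76 and 5.64 CPM in uninduced msx2-line and 22.2, 15.2 and 9.83 CPM in uninduced GFP-line myotubes, which did not overlap, but the difference did not pass (log2 -1.16 ± 0.30, edgeR adjusted p = 0.176). With the replicate block Ctsc was called lower (-1.11 ± 0.15, edgeR adjusted p = 0.00157) and Atp6v1c1 higher (0.25 ± 0.06, adjusted p = 0.0447).

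Most members were called between myotubes and myoblasts, as were most genes of all kinds, and the members' calls were mostly upwards. In the GFP line 41 of 67 were higher and 7 lower in uninduced myotubes than in myoblasts, while 77.7% of all genes were called (39.8% higher, 37.9% lower). In the msx2 line before induction 41 were higher and 13 lower, against 79.8% of all genes (40.8% higher, 39.0% lower). The called members made up 71.6% of those tested in the GFP line, below the share of all genes, and 80.6% in the msx2 line, near it. In both lines more of the calls were higher than among all genes. The members' median log2 fold change was 0.41 in the GFP line and 0.40 in the msx2 line, against 0.06 and 0.08 over all genes. Myoblast and cycling cell markers moved with the same contrast. The 9 fibroblast markers summed to 650 to 735 CPM in GFP-line myotubes and 2370 to 2435 CPM in GFP-line myoblasts. In the msx2 line they summed to 469.6 to 1258 CPM in uninduced myotubes and 3483 to 3546 CPM in myoblasts. Of the 7 fibroblast markers tested 4 were lower and 2 higher in myotubes, in each line. Col1a1 and Col3a1 held most of the sum, at 730 and 1479 CPM in GFP-line myoblasts. The part of these markers in the members' differences was not tested. Of the 41 members higher in the GFP line, 38 (92.7%) were also higher in the msx2 line, against 88.4% of all genes higher in the GFP line. The lines share no library in these contrasts. With 2 myoblast libraries a group, no spread can be given beyond that pair.

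Most V-ATPase subunits rose in differentiation: 10 of the 12 tested V1 subunits were higher in each line and none lower, and 6 of 9 V0 subunits were higher and 1 lower. Atp6v1e1, a stalk subunit, was at 301, 271 and 259 CPM in GFP-line myotubes and 111 and 107 CPM in GFP-line myoblasts (log2 1.34 ± 0.11, edgeR adjusted p = 1.15e-08). Atp6v1d was at 111, 99.1 and 101 CPM in myotubes and 46.0 and 48.3 CPM in myoblasts (log2 1.14 ± 0.09, edgeR adjusted p = 1.13e-08). Atp6v0b, of the proton-carrying ring, averaged 203 ± 3.38 CPM in myotubes and 108 ± 0.821 CPM in myoblasts (SD, n = 3 and 2) (log2 0.91 ± 0.07, edgeR adjusted p = 8.92e-09). All myotube libraries lay above all myoblast libraries in these genes. The larger steps were in isoforms: Atp6v0a1 was at 106, 103 and 112 CPM in GFP-line myotubes and 29.0 and 31.9 CPM in GFP-line myoblasts (log2 1.81 ± 0.09, edgeR adjusted p = 8.38e-11). Atp6v0e2 was at 30.0, 28.7 and 24.0 CPM in myotubes and 5.27 and 5.15 CPM in myoblasts (log2 2.40 ± 0.15, edgeR adjusted p = 8.44e-10). Atp6v0d2, an isoform best known from osteoclasts, was scarce, at 2.83, 3.02 and 1.71 CPM in myotubes and 0.187 and 0.0912 CPM in myoblasts (log2 4.12 ± 0.87, edgeR adjusted p = 0.000616). The 8 osteoclast markers summed to 33.9 to 36.8 CPM in those myotubes and 183 to 185 CPM in the myoblasts, with Acp5, Ocstamp, Dcstamp and Oscar under 1 CPM everywhere. Of these 8 markers 3 were higher and 3 lower, and most of the summed difference lay in Itgb3, at 13.7 CPM in the myotubes and 131 CPM in the myoblasts, and Nfatc1, at 15.0 CPM in the myotubes and 46.8 CPM in the myoblasts. The part of these markers in the Atp6v0d2 difference was not tested. The V0 subunit that fell in the GFP line was Atp6v0a4, at 3.84, 3.54 and 3.71 CPM in GFP-line myotubes and 5.64 and 6.11 CPM in GFP-line myoblasts (log2 -0.67 ± 0.20, edgeR adjusted p = 0.00692). Of the accessory proteins Atp6ap2, the prorenin receptor, was at 91.6, 89.5 and 89.1 CPM in myotubes and 61.5 and 65.0 CPM in myoblasts (log2 0.51 ± 0.07, edgeR adjusted p = 6.46e-06).

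In the msx2 line Atp6v0a1 was at 110.4, 96.5 and 114 CPM in uninduced myotubes and 37.1 and 34.9 CPM in myoblasts (log2 1.57 ± 0.09), and Atp6v0e2 at 34.4, 33.4 and 26.7 CPM in myotubes and 5.44 and 5.39 CPM in myoblasts (log2 2.54 ± 0.15). Both were called, so these isoforms moved in each line. The V0 subunit called lower in the msx2 line was Atp6v0d1, a member with a CLEAR core, at 59.0, 65.5 and 62.6 CPM in uninduced myotubes and 77.6 and 70.6 CPM in myoblasts (log2 -0.25 ± 0.07, edgeR adjusted p = 0.00281). Its call was lost with upper-quartile scaling (-0.03, edgeR adjusted p = 0.691) and with a 5 CPM filter (-0.04, edgeR adjusted p = 0.542). Atp6v0a4 was not called in the msx2 line (log2 -0.24 ± 0.21, edgeR adjusted p = 0.285). Atp6v1e2 and Atp6v1g3, isoforms known from testis and kidney, had no read in msx2-line myoblasts. Against a floor of 3 counts over that group (0.0642 CPM), Atp6v1e2 was at least 4.51-fold higher and Atp6v1g3 at least 8.43-fold higher in uninduced msx2-line myotubes, which had 24 and 44 reads of them. In GFP-line myoblasts each had 1 read. The members' median in the msx2 line was 0.40 with these 2 at their bounds as well.

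Cathepsins rose and fell in differentiation, with 6 of 13 higher and 3 lower in the GFP line and 7 higher and 4 lower in the msx2 line. Ctsd was at 1550.0, 1442 and 1137 CPM in GFP-line myotubes and 276 and 269 CPM in GFP-line myoblasts (log2 2.34 ± 0.16, edgeR adjusted p = 6.44e-09). Ctsl was at 752, 814 and 638 CPM in myotubes and 385 and 389 CPM in myoblasts (log2 0.92 ± 0.16, edgeR adjusted p = 8.50e-05). Ctsc was at 22.2, 15.2 and 9.83 CPM in myotubes and 2.47 and 1.78 CPM in myoblasts (log2 2.87 ± 0.41, edgeR adjusted p = 2.33e-05). Each of these was higher in every myotube library, although Ctsc varied widely among them. Ctss ran the other way, at 18.3, 20.1 and 18.2 CPM in GFP-line myotubes and 78.1 and 76.6 CPM in GFP-line myoblasts (log2 -2.04 ± 0.10, edgeR adjusted p = 7.01e-11), as did Ctsh at 15.3, 14.8 and 11.4 CPM in myotubes and 37.8 and 41.6 CPM in myoblasts (log2 -1.53 ± 0.23, edgeR adjusted p = 3.50e-05). Ctse, an aspartyl protease of endosomes, was at 70.6, 68.5 and 83.7 CPM in myotubes and 157 and 151 CPM in myoblasts (log2 -1.05 ± 0.12, edgeR adjusted p = 6.23e-07). Ctss and Ctsh were thus lower in myotubes than in myoblasts and higher after msx2 induction, and Ctsl and Ctsc had the opposite pattern. The Ctsl induction call was lost in 3 of 6 fits without 1 library. Other cathepsins did otherwise. Ctsf (15.6, 10.5 and 13.1 CPM in GFP-line myotubes, 3.03 and 3.33 CPM in GFP-line myoblasts) and Ctsa were higher in both comparisons. Ctsd and Ctse changed in differentiation but were not called after msx2 induction. In the macrophage and leukocyte markers the sums were 34.1 to 38.6 CPM in GFP-line myotubes and 37.6 to 39.6 CPM in GFP-line myoblasts, although 5 of the 9 tested markers were higher and 3 lower. Emr1 averaged 6.91 CPM in those myotubes and 1.71 CPM in the myoblasts, Ptprc 1.30 CPM in myotubes and 0.161 CPM in myoblasts, and Cd14 1.10 CPM in myotubes and 5.61 CPM in myoblasts. The part of these markers in the cathepsin differences was not tested.

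**Figure D3:**
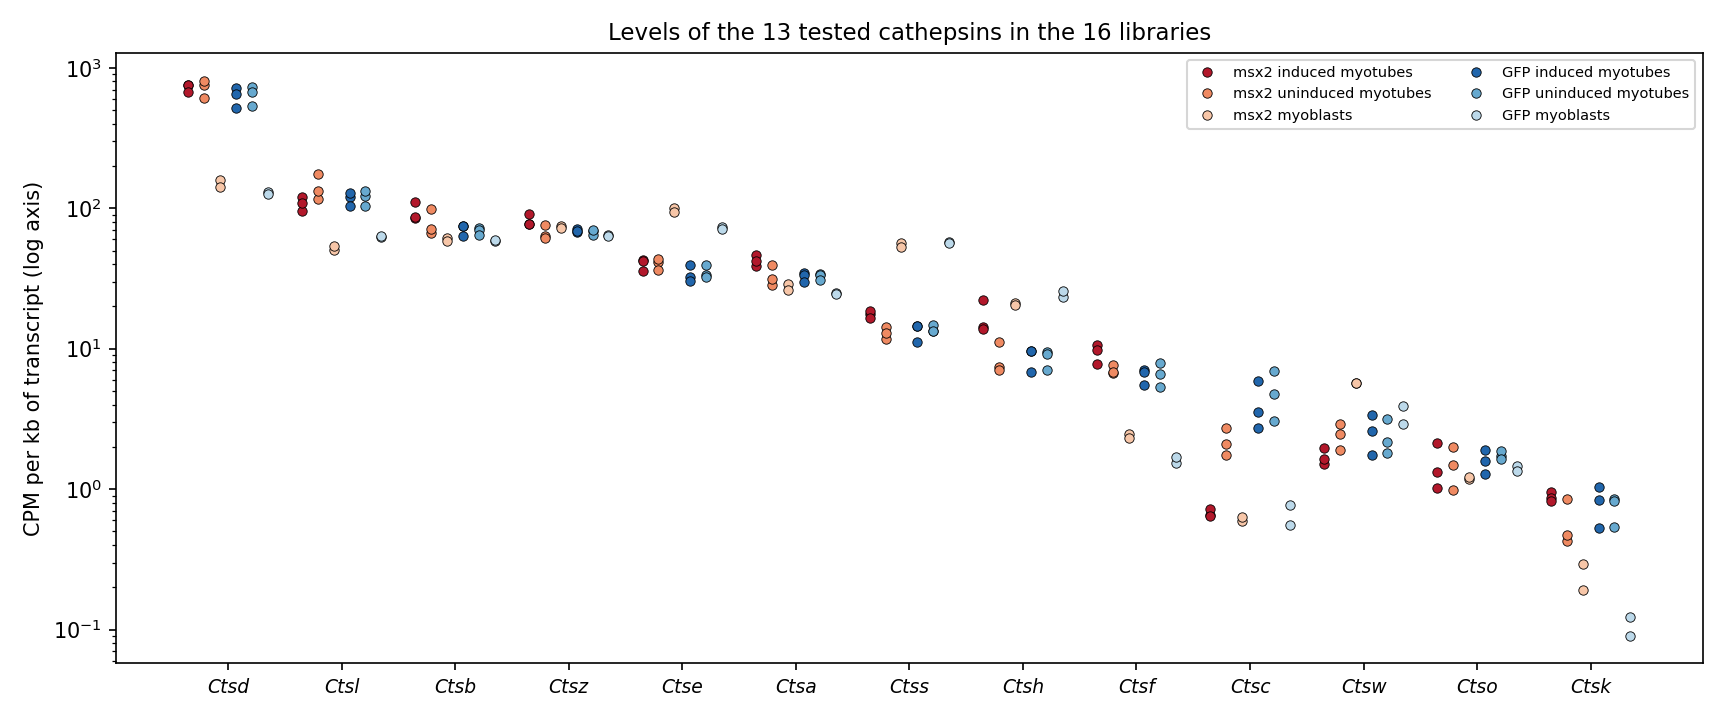
Levels of the 13 tested cathepsins in CPM per kilobase of transcript (log axis), with 1 point per library and a colour for each of the 6 groups. Ctsd stands highest, at a mean of 647 in uninduced GFP-line myotubes against 128 in GFP-line myoblasts, and Ctss has its myoblast points above its myotube points.

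Of the Atg proteins 9 of 17 rose and 1 fell in the GFP line, and 8 rose and 5 fell in the msx2 line. Atg9b, the second scramblase gene, had the largest log2 fold change of all members in the GFP line, at 14.5, 16.7 and 18.8 CPM in GFP-line myotubes and 0.373 and 0.639 CPM in GFP-line myoblasts (log2 5.03 ± 0.24, edgeR adjusted p = 4.52e-11). In the msx2 line it was at 14.9, 16.8 and 15.8 CPM in uninduced myotubes and 0.357 and 0.658 CPM in myoblasts (log2 4.94 ± 0.24). Its partner Atg9a was at 85.9, 77.5 and 85.8 CPM in GFP-line myotubes and 32.6 and 34.1 CPM in GFP-line myoblasts (log2 1.32 ± 0.10, edgeR adjusted p = 4.80e-09). Both scramblase genes were separate between the stages in every library. Atg12 was at 102, 89.6 and 91.1 CPM in myotubes and 37.7 and 35.5 CPM in myoblasts (log2 1.36 ± 0.09, edgeR adjusted p = 1.88e-09), and Atg4a at 31.5, 29.3 and 27.2 CPM in myotubes and 11.8 and 13.1 CPM in myoblasts (log2 1.23 ± 0.10, edgeR adjusted p = 1.16e-08). Atg5, to which Atg12 is joined, was the member that fell, at 26.6, 27.0 and 25.1 CPM in myotubes and 37.1 and 39.8 CPM in myoblasts (log2 -0.55 ± 0.07, edgeR adjusted p = 4.63e-06). The call of Atg2b (log2 0.21 ± 0.09) was lost without myoblast replicate 1 or 2 or uninduced GFP-line replicate 2 or 3 (edgeR adjusted p between 0.0675 and 0.220).

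Map1lc3a, the LC3 form with the larger step, was at 131, 110.0 and 106 CPM in GFP-line myotubes and 28.3 and 27.0 CPM in GFP-line myoblasts (log2 2.06 ± 0.15, edgeR adjusted p = 6.90e-09). Map1lc3b was at 137, 111 and 113 CPM in myotubes and 73.2 and 71.1 CPM in myoblasts (log2 0.74 ± 0.09, edgeR adjusted p = 3.04e-06). Gabarapl1 was lower, at 40.6, 44.8 and 40.3 CPM in myotubes and 61.7 and 56.7 CPM in myoblasts (log2 -0.50 ± 0.08, edgeR adjusted p = 6.20e-05). LC3 genes and Gabarapl1 therefore moved in opposite directions, and in the msx2 line Gabarap was called lower as well (log2 -0.29 ± 0.07, edgeR adjusted p = 0.00101). That call was lost with upper-quartile scaling (-0.08, edgeR adjusted p = 0.357) and with a 5 CPM filter (-0.09, edgeR adjusted p = 0.232). Among the regulators Tfeb was at 17.8, 17.5 and 11.0 CPM in GFP-line myotubes and 4.20 and 5.56 CPM in GFP-line myoblasts (log2 1.65 ± 0.29, edgeR adjusted p = 0.000149), and Tfe3 at 18.3, 22.5 and 21.6 CPM in myotubes and 68.2 and 65.1 CPM in myoblasts (log2 -1.68 ± 0.14, edgeR adjusted p = 2.28e-08). In the msx2 line Tfeb was at 18.4, 18.6 and 13.0 CPM in uninduced myotubes and 8.96 and 6.87 CPM in myoblasts (log2 1.07 ± 0.27, edgeR adjusted p = 0.00246) and Tfe3 at 18.3, 23.8 and 21.9 CPM in myotubes and 91.5 and 79.4 CPM in myoblasts (log2 -2.00 ± 0.14, edgeR adjusted p = 2.50e-09). These related factors moved in opposite directions in both lines. Sqstm1 was at 446, 434 and 401 CPM in GFP-line myotubes and 319.6 and 325 CPM in GFP-line myoblasts (log2 0.41 ± 0.08, edgeR adjusted p = 0.000256), and Becn1 at 96.2, 99.4 and 104 CPM in myotubes and 64.2 and 62.9 CPM in myoblasts (log2 0.65 ± 0.06, edgeR adjusted p = 1.19e-07). Ulk1 (log2 0.36 ± 0.13, edgeR adjusted p = 0.0169) and Ulk2 (0.31 ± 0.10, edgeR adjusted p = 0.00801) rose by less. The Ulk1 call was lost without myoblast replicate 1 or 2 (edgeR adjusted p between 0.0685 and 0.0811) and the Ulk2 call without myoblast replicate 1 (edgeR adjusted p = 0.0610). Lamp1 was at 563, 555 and 570.0 CPM in myotubes and 419.8 and 409 CPM in myoblasts (log2 0.44 ± 0.07, edgeR adjusted p = 3.01e-05), and Lamp2 rose by a like step (log2 0.42 ± 0.07, edgeR adjusted p = 3.88e-05).

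**Figure D4:**
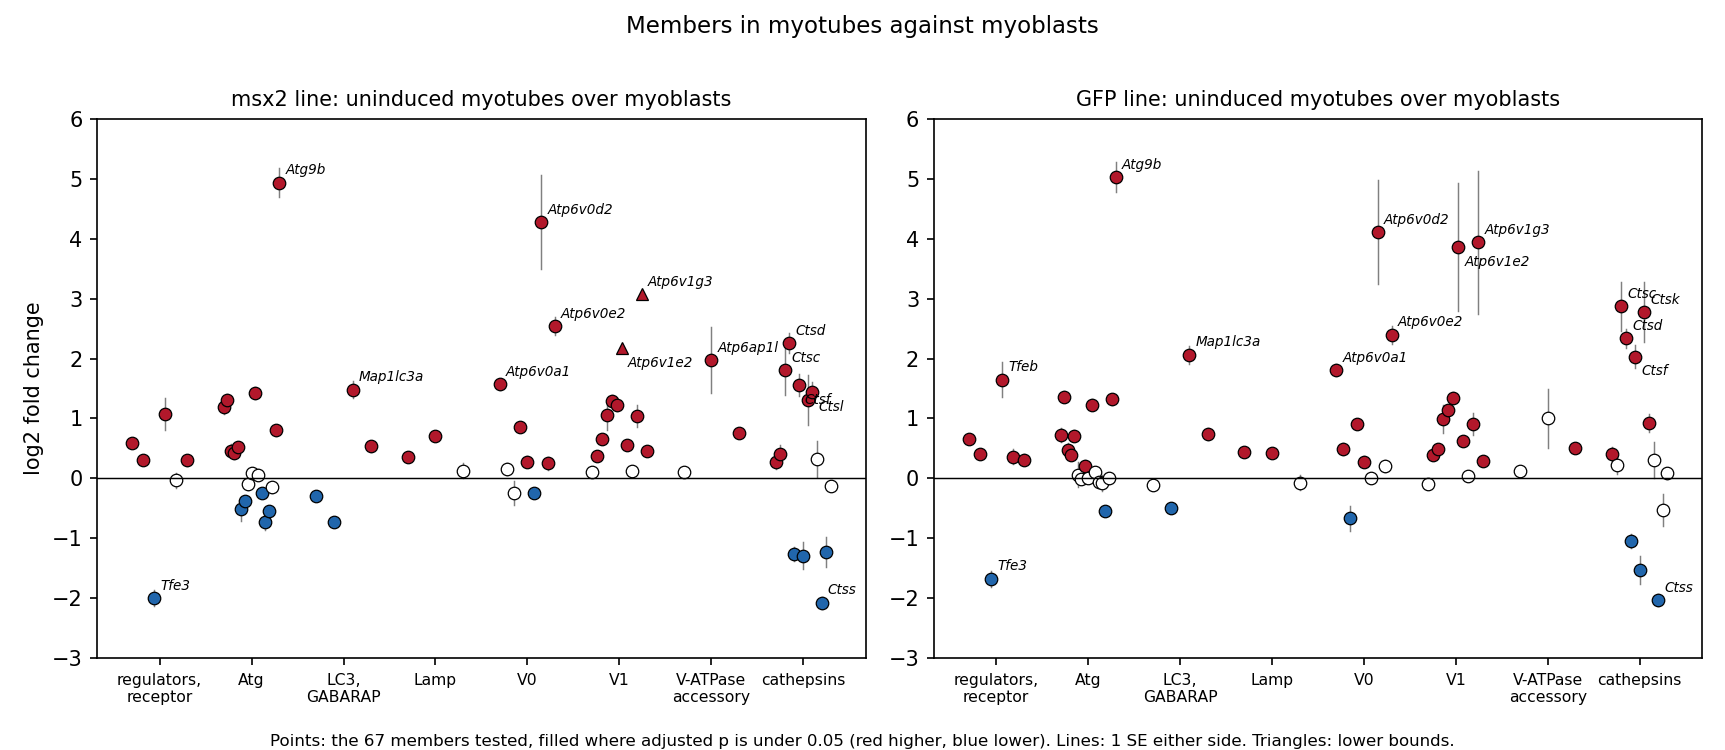
Log2 fold change of each of the 67 tested members, uninduced myotubes over myoblasts, by role, for the msx2 line (left) and the GFP line (right), with lines of 1 SE either side, filled points where the edgeR adjusted p was under 0.05 and triangles for lower bounds. Atg9b is highest at 4.94 in the msx2 line and 5.03 in the GFP line, and every filled V1 point lies above 0.

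Of the 48 calls in the GFP line 42 held whichever library was left out, and of the 54 in the msx2 line 46. Besides Ulk1, Ulk2 and Atg2b, the calls lost in the GFP line were those of Atp6v0c without myoblast replicate 2 (edgeR adjusted p = 0.0563), Atp6v1g3 without myoblast replicate 2 (edgeR adjusted p = 0.0517) and Atp6v1h without myoblast replicate 1 (edgeR adjusted p = 0.117). In the msx2 line the lost calls were those of Atg16l2, Atg4c, Atp6v0c, Atp6v0e, Ctsa, Ctsb, Ctsk and Ulk2, at edgeR adjusted p between 0.0588 and 0.271, when myoblast replicate 1 or 2 or uninduced myotube replicate 2 or 3 was left out. The test of the difference between the lines' differentiation called 3 members, all lower in the msx2 line, while 8.28% of all genes were called (4.01% higher, 4.27% lower). By upper-quartile scaling 884 genes were higher and 445 lower there, against 651 and 694 by TMM. The 3 members were Atg9a (log2 difference -0.51 ± 0.13, edgeR adjusted p = 0.0244), Atg2a (-0.37 ± 0.10, edgeR adjusted p = 0.0255) and Atg4d, a further LC3 protease (-0.65 ± 0.18, edgeR adjusted p = 0.0428). Each call was lost in 4 to 8 of the 10 fits that left out 1 library, at edgeR adjusted p between 0.0516 and 0.211. All libraries but replicate 1 of the uninduced msx2-line myotubes were among those that ended a call. Between the myoblasts of the lines, msx2 line over GFP line, 9 members were higher and 2 lower, while 16.3% of all genes were called (9.09% higher, 7.24% lower). By upper-quartile scaling 829 genes were higher and 1411 lower there, against 1476 and 1176 by TMM. Atg9a was at 47.7 and 46.8 CPM in msx2-line and 32.6 and 34.1 CPM in GFP-line myoblasts (log2 0.50 ± 0.10, edgeR adjusted p = 0.00401), and of the 11 calls only this one held whichever of the 4 libraries was left out. Lamp2 was at 134 and 139 CPM in msx2-line and 173 and 171 CPM in GFP-line myoblasts (log2 -0.33 ± 0.07, edgeR adjusted p = 0.00753).

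Setting the stages beside the induction, 13 of the 41 members higher in GFP-line myotubes (31.7%) were higher and 4 (9.76%) lower after msx2 induction, and 24 were not called. Of the 6460 genes of all kinds that were higher in GFP-line myotubes 16.2% were higher and 19.7% lower after msx2 induction. Of the 7 members lower in GFP-line myotubes 3 were higher after msx2 induction and none lower, while of the 6156 genes of all kinds lower in GFP-line myotubes 16.7% were higher and 16.4% lower. These contrasts share no library. Of the members with a CLEAR core, Atp6v0d1 and Ctsa were called after msx2 induction, both higher, and Atg3, Atp6v0e, Atp6v1a and Ctsd were not. This division was not stable. The calls of Atp6v0d1 and Ctsa were lost in 1 and 3 of the 6 fits without 1 library. With the replicate block and GC correction both were lost (edgeR adjusted p = 0.175 and 0.0830). That fit called Atg3 and Atp6v1a, and Ctsd had a reversed sign in it (-0.19). In GFP-line differentiation Ctsd and Ctsa rose.

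Isoform shares, computed per kilobase of transcript, summarise these shifts within families. Tfeb stood to Tfe3 at a ratio of 2.39 ± 0.648 in induced and 1.15 ± 0.299 in uninduced msx2-line myotubes and 0.133 ± 0.0116 in msx2-line myoblasts (SD, n = 3, 3 and 2). In the GFP line the ratio was 1.09 ± 0.216 in induced myotubes, 1.09 ± 0.338 in uninduced myotubes and 0.106 ± 0.0245 in myoblasts. Atp6v0a1 made up 63.2 ± 1.26% of the a-subunit family in induced and 61.3 ± 3.57% in uninduced msx2-line myotubes, within the spread of the replicates, and 36.9 ± 2.16% in msx2-line myoblasts. In the GFP line that share was 61.0 ± 2.55% in uninduced myotubes and 36.6 ± 2.75% in myoblasts. Atp6v0e2 made up 30.1 ± 1.53% of the e-subunit pair in induced and 36.2 ± 3.94% in uninduced msx2-line myotubes. Map1lc3a made up 69.4 ± 0.603% of the 2 LC3 genes in uninduced GFP-line myotubes and 47.6 ± 0.370% in GFP-line myoblasts. Atg9b made up 17.8 ± 2.12% of the Atg9 pair in the same myotubes and 1.60% in the myoblasts.

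**Figure D5:**
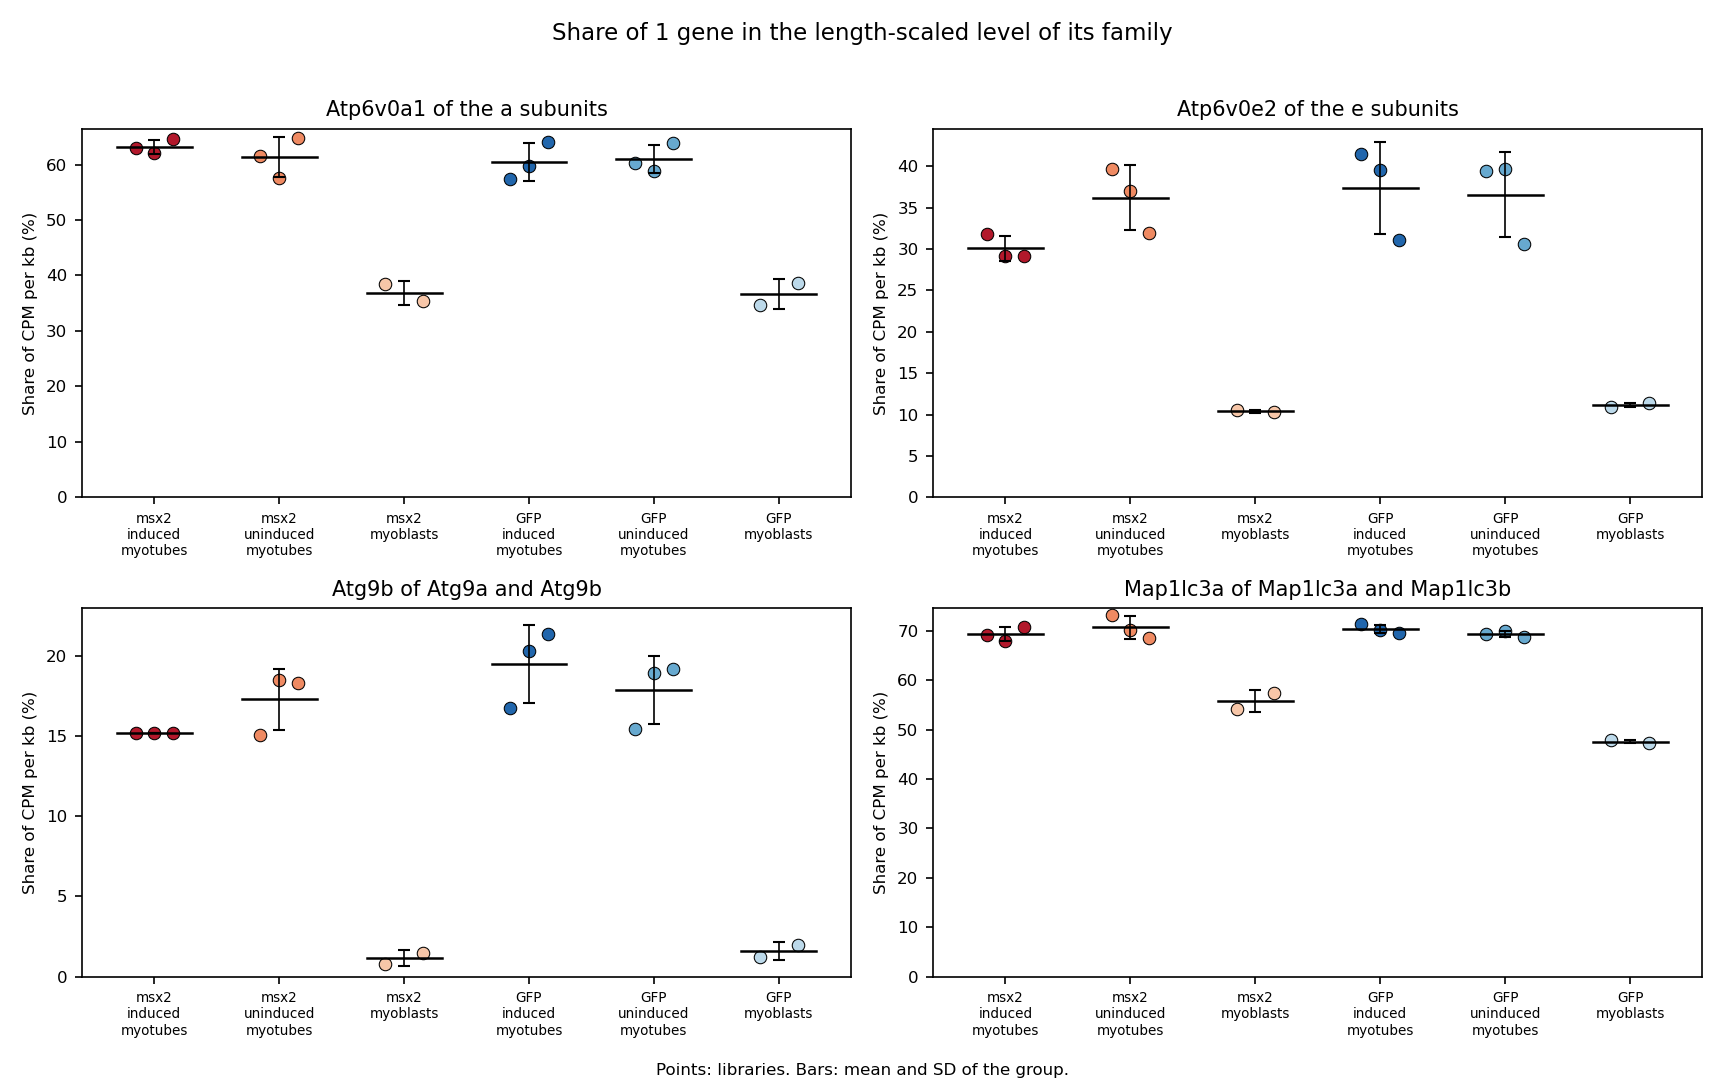
Share (%) of 1 gene in the summed CPM per kilobase of its family, for Atp6v0a1, Atp6v0e2, Atg9b and Map1lc3a, with a point per library and bars for the group mean and SD. In all 4 panels the 12 myotube libraries lie above the 4 myoblast libraries, such as 61.0% against 36.6% for Atp6v0a1 in the GFP line.

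Per kilobase, Ctsd led the cathepsins in every group, with 63.9 ± 2.67% of their summed level in uninduced GFP-line myotubes (n = 3) and 25.6 ± 0.313% in GFP-line myoblasts (n = 2). The lengths used were those of the longest protein-coding transcript, 2127 bases for Ctsd, 6168 for Ctsl and 4743 for Ctsb. Shares and orders by level depend on that choice. In CPM, not scaled by length, Ctsl (385 and 389) and Ctsb (278 and 281) stood above Ctsd (276 and 269) in GFP-line myoblasts. In the myotubes the order by level was Ctsd at 647 CPM per kilobase, Ctsl at 119, Ctsb at 69.0, Ctsz at 67.9 and Ctse at 34.9, with Ctsb and Ctsz closer to each other than their spread. In the myoblasts it was Ctsd at 128, Ctse at 72.5, Ctsz at 64.0, Ctsl at 62.7, Ctsb at 59.0 and Ctss at 57.1 CPM per kilobase. Of the autophagosome proteins Gabarap at 109.6 and Map1lc3a at 104 CPM per kilobase lay within their spread in GFP-line myotubes, above Map1lc3b at 45.8 and Gabarapl1 at 23.0. In GFP-line myoblasts Gabarap stood at 118 CPM per kilobase, Gabarapl1 at 32.5, Map1lc3b at 27.4 and Map1lc3a at 24.9. Among the V0 subunits of GFP-line myotubes the ring proteins Atp6v0b and Atp6v0c led, at 203 ± 3.38 and 156 ± 6.47 CPM per kilobase, and Atp6v0e and Atp6v0a1, at 26.8 ± 3.13 and 26.6 ± 1.14, lay within their spread. Among V1 subunits Atp6v1e1 led at 211 ± 16.4, followed by Atp6v1g1 at 127 ± 4.24 CPM per kilobase. Lamp1 stood at 252, Lamp2 at 63.7 and Lamp3 at 2.67 CPM per kilobase.

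Genes around the members, from lists of the same pathway, were counted with the same fit. After msx2 induction 9 of 42 other lysosomal hydrolases were higher and 3 lower, 9 of 30 membrane proteins higher and 5 lower, 12 of 28 sorting and fusion genes higher and 2 lower, 5 of 25 initiation partners higher and 7 lower, 4 of 20 receptor genes higher and 3 lower, and 6 of 38 mTORC1 and TFEB control genes higher and 7 lower. The shares of all genes were 16.2% higher and 16.3% lower. Among hydrolases Idua, which degrades glycosaminoglycans, averaged 32.2 CPM in induced and 9.73 CPM in uninduced msx2-line myotubes (log2 1.72 ± 0.11), and Ppt1, a thioesterase, fell (log2 -0.65 ± 0.09). Abcb9, a lysosomal peptide transporter, averaged 14.5 CPM in induced and 2.63 CPM in uninduced myotubes (log2 2.46 ± 0.19), and Litaf, which sits on late endosomes, 160.4 CPM in induced and 49.2 CPM in uninduced ones (log2 1.70 ± 0.13). Tollip, an endosomal adaptor and cargo receptor, averaged 273 CPM in induced and 114 CPM in uninduced myotubes (log2 1.27 ± 0.10). Deptor, an inhibitor within mTOR complexes, averaged 202 CPM in induced and 522 CPM in uninduced myotubes (log2 -1.37 ± 0.14), and Prkaa1, a catalytic subunit of AMPK, fell too (log2 -0.76 ± 0.09). Each gene named here passed the edgeR test.

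In GFP-line differentiation the same lists gave 16 of 42 hydrolases higher and 14 lower, 18 of 30 membrane proteins higher and 5 lower, 11 of 28 sorting and fusion genes higher and 10 lower, 14 of 25 initiation partners higher and 8 lower, 14 of 20 receptor genes higher and 3 lower, and 18 of 38 mTORC1 and TFEB control genes higher and 13 lower. The shares of all genes were 39.8% higher and 37.9% lower. Sort1, a sorting receptor for lysosomal proteins, was higher in myotubes (log2 3.48 ± 0.17) and lower after msx2 induction (-0.72 ± 0.13). Gaa, the lysosomal enzyme that degrades glycogen, was higher in myotubes (log2 1.23 ± 0.08), and Gusb, a glucuronidase, lower (-1.36 ± 0.12). Flcn, which controls where Tfeb and Tfe3 reside, was higher (log2 2.12 ± 0.09), as were the lysosomal amino acid transporter Slc38a9 (2.24 ± 0.10) and the initiation partner Trp53inp2 (2.12 ± 0.12).

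Some members could not be read cleanly or at all. The 7 without enough reads for a test were Atp6v1b1 with 36 reads in all 16 libraries, Ctsg with 23, Ctsm with 16, Ctsq and Ctsr with 11 each, Lamp5 with 8 and Ctsj with 3. Ctsj, Ctsm, Ctsq and Ctsr belong to a rodent cluster known from placenta, Ctsg to granules of neutrophils and mast cells, Atp6v1b1 to kidney and Lamp5 to neurons. Annotated copies of Atp6v0c, Atg4a and Ctsm could share reads with their parent genes. In the reference annotation the exons of Becn1 overlap those of Cntd1 on the other strand by 43.9% of their bases, Gabarapl1 overlaps 1700101I11Rik by 28.3%, Ctsl overlaps Gm47123 by 26.9% and Sqstm1 overlaps Mrnip by 17.3%. Atp6v1e2, given above by a lower bound, overlaps AC154492.1 on the other strand by 29.4%. On the same strand Ctsd overlaps Gm49369 by 34.4% and Atg9a overlaps Gm29253 by 31.8%. The kit kept strand, but the strand setting of the counting is not given in the sources used here, so reads of such pairs may not have been told apart.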

How the data were processed

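The deposited values are counts, whole numbers of reads per gene, for 19866 entries in 16 libraries. Build mm9, edgeR 3.6.8, SAMtools 0.1.19 and TopHat2 2.0.11 are listed, without roles, per the submitters' processing notes. How reads were assigned to genes, by which tool, annotation and strand rule, is not given in the sources used here. Per the labels' protocols, libraries came from 500 ng of RNA with a stranded mRNA kit and 12 PCR cycles. The 67 entries with no gene symbol, which held 0.0601 to 0.0878% of a library's counts, stayed out.

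One robust quasi-likelihood model was fitted to all libraries with edgeR 4.0.16 (R 4.3.3, limma 3.58.1), with TMM scaling and a minimum count of 10 in filterByExpr, which kept 16245 genes. It gave 9 two-sided contrasts, adjusted by Benjamini-Hochberg over all genes tested, with a threshold of 0.05. An SE is the unshrunken log2 fold change over the root of its F statistic. The script was tested on simulated data. DESeq2 1.42.0, other scalings and filters, a GC correction, a replicate block and leaving out each library were the alternatives. Floors cover counting error only, whereas an SE also reflects the spread between libraries. No PCR duplicates were removed here.

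The members and the gene lists were chosen with earlier results of these data known. Genes were named by rule: the regulators and the LC3, GABARAP and Lamp genes, in each other role up to 4 members higher and 4 lower by smallest adjusted p, and from each further list up to 2 higher and 2 lower. Csf1r and replicate 2 of the msx2 line were singled out after their values were seen.

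Same-numbered induced and uninduced myotubes deviated together (correlations 0.207 to 0.508 in the msx2 line and 0.359 to 0.453 in the GFP line, against -0.404 to 0.0817 and -0.266 to -0.140 for other numbers), as did same-numbered uninduced myotubes of the lines (0.177 to 0.288). The numbers may thus be pairs there, by the data and not by the labels. The main model had no replicate term and took no pairs, and the block was an alternative fit. Overlap between groups, given for single genes, likewise takes no account of pairs. For induced myotubes of the lines the correlations were 0.0912 to 0.247 for the same number and -0.176 to 0.0432 for other numbers. Pairs are possible there too, at lower correlations. For myotubes and myoblasts of the same number the correlations were -0.0492 to 0.0690, so the data show no pairs there. The replicate block was nevertheless 1 term over all 16 libraries. It therefore grouped same-numbered myoblasts and myotubes too, in every blocked result given here. Deviations were taken from group means, so the values for other numbers are not independent of those for the same number. Transcript lengths, each of a gene's longest protein-coding transcript, came from the reference annotation, which is of another build than mm9. Promoter sequences came from RefSeq GRCm38.p6.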

Additional observations from a re-analysis of the deposited data

Results flagged for a closer look

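Members whose response differed between the 2 lines by the interaction test are listed here with their values. Tfeb responded to induction in the msx2 line more than in the GFP line by 1.23 on the log2 scale, Ctsh by 0.93, Atp6v0a1 by 0.50, Ctss by 0.49, Map1lc3b by 0.43 and Sqstm1 by 0.42. The difference was -1.43 for Ctsc, -0.61 for Atp6v0e2, -0.49 for Atg4a and -0.47 for Atg4b. All 10 are differences of induced over uninduced myotubes, msx2 line minus GFP line.

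The step from myoblasts to uninduced myotubes was lower in the msx2 line than in the GFP line for Atg4d (-0.65), Atg9a (-0.51) and Atg2a (-0.37). Atg4d was at 16.5, 13.2 and 12.2 CPM in uninduced msx2-line myotubes and 24.3 and 21.8 CPM in msx2-line myoblasts, against 17.1, 16.1 and 13.7 CPM in uninduced GFP-line myotubes and 16.1 and 16.9 CPM in GFP-line myoblasts. The exons of Atg4d overlap those of Kri1 on the other strand by 19.3% of their bases.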

How the results depend on the processing

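Leaving out 1 library at a time gave 18 to 23 called members for the induction of msx2, 7 to 15 for its difference from the GFP line, 44 to 49 for differentiation of the GFP line, 48 to 54 for that of the msx2 line, 0 to 4 for the difference between them, 24 to 30 between induced myotubes and 1 to 9 between myoblasts of the lines, and 0 to 0 for the induction of GFP and between uninduced myotubes. With the compared groups fitted alone, 15 members were called after msx2 induction (11 higher) and 27 between myoblasts. The replicate block gave 28 after msx2 induction, 36 between induced myotubes and 9 for the difference in differentiation. It gave 2 between uninduced myotubes and 19 between myoblasts, where the numbers are not pairs. With a GC correction as well it gave 2 between uninduced myotubes and 6 between myoblasts. DESeq2 called 2 between uninduced myotubes, and upper-quartile scaling 7 between myoblasts. That scaling moved the median of all genes to 0.204 (TMM 0.0573) in GFP-line and 0.292 (0.0759) in msx2-line differentiation. Over all alternatives, single libraries included, 11 of the 24 calls after msx2 induction held, 6 of 10 in its difference from the GFP line, 42 of 48 in GFP-line and 43 of 54 in msx2-line differentiation, 0 of 3 in the difference between them, 17 of 30 between induced myotubes and 1 of 11 between myoblasts. The block with the GC correction ended 9 calls after msx2 induction (Atp6v0d1, Ctsl, Ctsa, Ulk1, Atg9a, Atg2a, Ctsf, Gabarapl1 and Ctsz), and fitting the compared groups alone also ended 9 (Atp6v0d1, Ctsl, Ctsa, Ulk1, Gabarapl1, Ctsz, Atg10, Atp6v1d and Atg2b). After msx2 induction the block with the GC correction called 32 members, 24 higher and 8 lower. Of these calls 15 were kept, 13 were new and 4 were those with a reversed sign named below, which the main fit did not call. In msx2-line differentiation upper-quartile scaling and the 5 CPM filter each ended the calls of Atp6v0d1, Atg4c, Gabarap and Atg16l2. By direction, the block with the GC correction gave 8 lower after msx2 induction and 11 higher in its difference from the GFP line, which was 12 without uninduced msx2-line replicate 2, and a 5 CPM filter gave 8 lower in msx2-line differentiation. Reversed signs were seen with the block and GC correction for Atp6v0b (-0.18), Ctsd (-0.19), Lamp2 (0.17) and Atg12 (0.16) after msx2 induction, Lamp3 (-0.44) in msx2-line differentiation, Atg2a (-0.12) and Ctsz (-0.00953) between induced myotubes and Lamp2 (0.015) between myoblasts, and with a 5 CPM filter for Atg2a (0.16) in GFP-line differentiation. The cause was not tested. Without both replicates 2 of the msx2 line, 14 members differed between the inductions, 12 higher and 2 lower, against 10 with them (6 and 4). The member counts of the alternative fits are not set beside the share of all genes in the same fit. A shift in them may therefore not be particular to the members.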

Other observations

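Csf1r, a receptor best known from macrophages and used here only as a marker, averaged 6.03 CPM in induced and 0.719 CPM in uninduced msx2-line myotubes (n = 3 each), a log2 fold change of 3.02 ± 0.25. Of the 9 macrophage and leukocyte markers tested Itgax and Tyrobp were also higher and Itgam was lower, as given above.

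Further list genes after msx2 induction were Hyal1, a hyaluronidase (log2 1.40 ± 0.15), Hexa, a hexosaminidase subunit (-0.34 ± 0.09), Scarb2, which carries glucocerebrosidase to lysosomes (-0.56 ± 0.05), Ostm1 (-0.40 ± 0.06), Vamp8, a SNARE of autophagosome fusion (0.61 ± 0.08), Plekhm1 (0.49 ± 0.08), Uvrag (0.34 ± 0.08), Vmp1 (-0.40 ± 0.06), the reticulophagy receptors Tex264 (0.49 ± 0.08), Fam134b (-0.83 ± 0.07) and Sec62 (-0.42 ± 0.11), and Mtor itself (-0.32 ± 0.06). Each passed the edgeR test, and the 3 reticulophagy receptors did not move in 1 direction.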
